A study of Mus musculus with 14 samples.

Results

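The inhibitory SMADs Smad6 and Smad7, the SMAD corepressors Ski and Skil, and the ubiquitin ligases Smurf1 and Smurf2 were examined for binding of pSMAD1/5/9 and SMAD4 and for H3K27ac in mouse muscle stem cells (MuSCs). These 6 genes were chosen by name as negative regulators of BMP signaling, with earlier results of these data known, so no test of the set was made. All consensus peaks that overlapped the canonical GENCODE transcript of a gene, or the 20 kb on either side of it, were assigned to the gene. This gave 244 of the 175565 peaks in 6 lists. MuSCs came from 9-week-old female C57BL/6N mice that carry the Tg(Pax7-EGFP)Tajb reporter. The cells were sorted for GFP after 1 day of culture, which enriches for Pax7-expressing cells, and were studied in culture and not as freshly isolated cells. Both conditions shared 6 h in serum-free medium with 200 ng/mL BMPR-1A-Fc, a soluble receptor that binds BMPs. The BMP6 group then received 100 ng/mL BMP6 for 1 h, and the control group received the vehicle, 4 mM HCl with 0.1% BSA. CUT&Tag, in which an antibody directs a transposase to its target in the genome, was performed on 100000 fixed cells per library with 2 biological replicates per antibody and condition. The authors merged both replicates into 1 list of peaks per antibody and condition.

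BMP ligands activate receptor kinases that phosphorylate SMAD1, SMAD5 and SMAD9, and the phosphorylated proteins join SMAD4 and bind DNA in the nucleus. SMAD6 and SMAD7 lack the phosphorylation site of the receptor SMADs and block the pathway at the receptors or at SMAD4. SKI and SKIL (also called SnoN) bind SMAD complexes and recruit corepressors of transcription, and SMURF1 and SMURF2 attach ubiquitin to SMADs and receptors. Smad6 and Smad7 are textbook examples of negative feedback, since BMP signaling is known to activate both genes. H3K27ac marks active promoters and enhancers.

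The clearest pattern was at the promoters of Skil, Smad7 and Smad6. After BMP6, the Skil promoter held the strongest pSMAD1/5/9 peak among 7339 and the strongest SMAD4 peak among 12860. The Smad7 promoter ranked 15 and 7 in the same lists, and the Smad6 promoter ranked 90 and 10. In control cells the Skil promoter ranked 2 for pSMAD1/5/9 and 2 for SMAD4. Control SMAD4 ranked 15 at the Smad7 promoter and 30 at the Smad6 promoter, where no control pSMAD1/5/9 peak was listed. Ski had the most peaks of the 6 genes, with 12 pSMAD1/5/9 and 17 SMAD4 peaks after BMP6, but none of them ranked as high as these promoters. Smurf1 had weak peaks, and Smurf2 had no pSMAD1/5/9 peak within 20 kb. All ranks are by the signal that the peak caller gave, with rank 1 as the highest in a list.

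The sequences below were read from GRCm39 and are shown because they lie in or next to the strongest peaks of Skil, Ski and Smad6 and at the pSMAD1/5/9 summit of Smurf1, and because they differ in the SMAD motifs they hold. Each is printed 5′ to 3′ on the strand of its gene. The motifs searched on both strands were the SMAD palindrome GTCTAGAC, the SMAD-binding element GTCTG, the GC-rich sites GGCGCC and GGAGCC, the E-box CAGCTG, AP-1 (TGACTCA), and 2 spaced sites in which GGCGNC or GACGNC is followed after 5 bases by GTCT. Capitals mark matches to these motifs, except AP-1 and the GACGNC form, on either strand, so that CAGAC is GTCTG on the other strand. The Skil stretch covers the 150 bases upstream of the TSS (chr3:31148666-31148815, plus strand) and overlaps no annotated exon. The Ski stretch covers 120 bases around the summit of its promoter peak (chr4:155307774-155307893, minus strand). The Smad6 stretch holds the 30 bases around its palindrome (chr9:63929327-63929356, minus strand), which lies in the first exon. The Smurf1 stretch covers 120 bases of the first intron around the pSMAD1/5/9 summit (chr5:144901908-144902027, minus strand).
Skil: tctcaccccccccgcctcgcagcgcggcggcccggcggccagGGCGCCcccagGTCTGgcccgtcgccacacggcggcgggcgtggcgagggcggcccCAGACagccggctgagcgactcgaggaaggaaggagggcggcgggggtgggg
Ski: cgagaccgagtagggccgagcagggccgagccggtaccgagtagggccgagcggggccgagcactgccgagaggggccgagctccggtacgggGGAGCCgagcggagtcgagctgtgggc
Smad6: gccgccaaagtGTCTAGACtggcatatgat
Smurf1: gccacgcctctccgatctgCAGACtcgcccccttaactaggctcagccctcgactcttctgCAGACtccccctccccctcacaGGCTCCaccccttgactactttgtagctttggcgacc

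In the Skil stretch, GGCGCC was followed after 5 bases by GTCT, in bases -108 to -94 from the TSS (the TSS is base 0). GTCTG also matched here, at the end of the spaced site, and again on the other strand 52 bp upstream of the TSS. The spaced site was found in 1 of the 23 pSMAD1/5/9 windows of 200 bp around the summits at the 6 genes, against 0.313% of all 7339 windows after BMP6 (23 windows). It was present in the window of the Skil promoter in all 4 lists of pSMAD1/5/9 and SMAD4. The Ski stretch held 1 GGAGCC and neither the palindrome nor GTCTG. This holds for the promoter stretch only. In the strongest SMAD4 peak of Ski, which is intronic and not printed here, a GTCTG lay 39 bp from the summit. The Smad6 palindrome began 66 bp downstream of the TSS, 26 bp from the pSMAD1/5/9 summit and 54 bp from the SMAD4 summit. The Smurf1 stretch held GTCTG at 858 bp and 900 bp and GGAGCC at 922 bp from the TSS. A match to a motif describes the sequence and does not show that a SMAD bound there.

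Of the 6 genes, 5 had a pSMAD1/5/9 peak after BMP6 and 2, Ski and Skil, had one in control cells. By the same rule, 29.1% of all 21757 protein-coding genes had a pSMAD1/5/9 peak after BMP6 and 5.97% in control cells. A pSMAD1/5/9 peak was listed after BMP6 and none in control cells at Smad6, Smad7 and Smurf1, against a background of 23.5% of genes. All 6 genes had a SMAD4 peak in both conditions, against 39.3% of genes after BMP6 and 30.8% in control cells. No gene of the 6 had a SMAD4 peak after BMP6 and none in control cells, a pattern found in 12.8% of genes. H3K27ac peaks were listed at all 6 genes in both conditions, against 74.8% of genes after BMP6 and 73.4% in control cells. The regions of the 6 genes, 68 to 141 kb long, are unequal in length, so peaks were also counted per length. There were 3.68 pSMAD1/5/9 peaks per 100 kb at the 6 genes after BMP6, and 0.587 over the regions of all genes. For SMAD4 after BMP6 the densities were 6.72 and 0.973 peaks per 100 kb, and in control cells 3.36 and 0.661. The 6 genes had 75 H3K27ac peaks after BMP6 and 78 in control cells, and the density in control cells was 12.5 per 100 kb, against 4.65 over all genes.

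Since each list is 1 consensus of 2 replicates, the difference in the number of peaks between conditions carries no error and was not tested. The list of control pSMAD1/5/9 peaks is short, with 949 peaks, so that a site without a control peak is one that did not pass the IDR of 0.05 there, and signal below that limit is not in the list. The depth behind each peak is unknown, because the lists hold no read counts. Between the replicates, ranks of the peaks at the 6 genes differed by a median of 1.35 times for pSMAD1/5/9 and 1.31 times for SMAD4 after BMP6. The largest difference was 9.62 times, for the Smad6 promoter in the pSMAD1/5/9 list. As a check of the cell type, H3K27ac covered the TSS of 6 of 6 MuSC markers in both conditions (Pax7, Myf5, Myod1, Cdh15, Itga7 and Vcam1). Of 6 markers of other cells in muscle it covered 2, the muscle fiber genes Acta1 and Ckm, and not Pdgfra, Pecam1, Cdh5 or Ptprc.

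**Figure D1:**
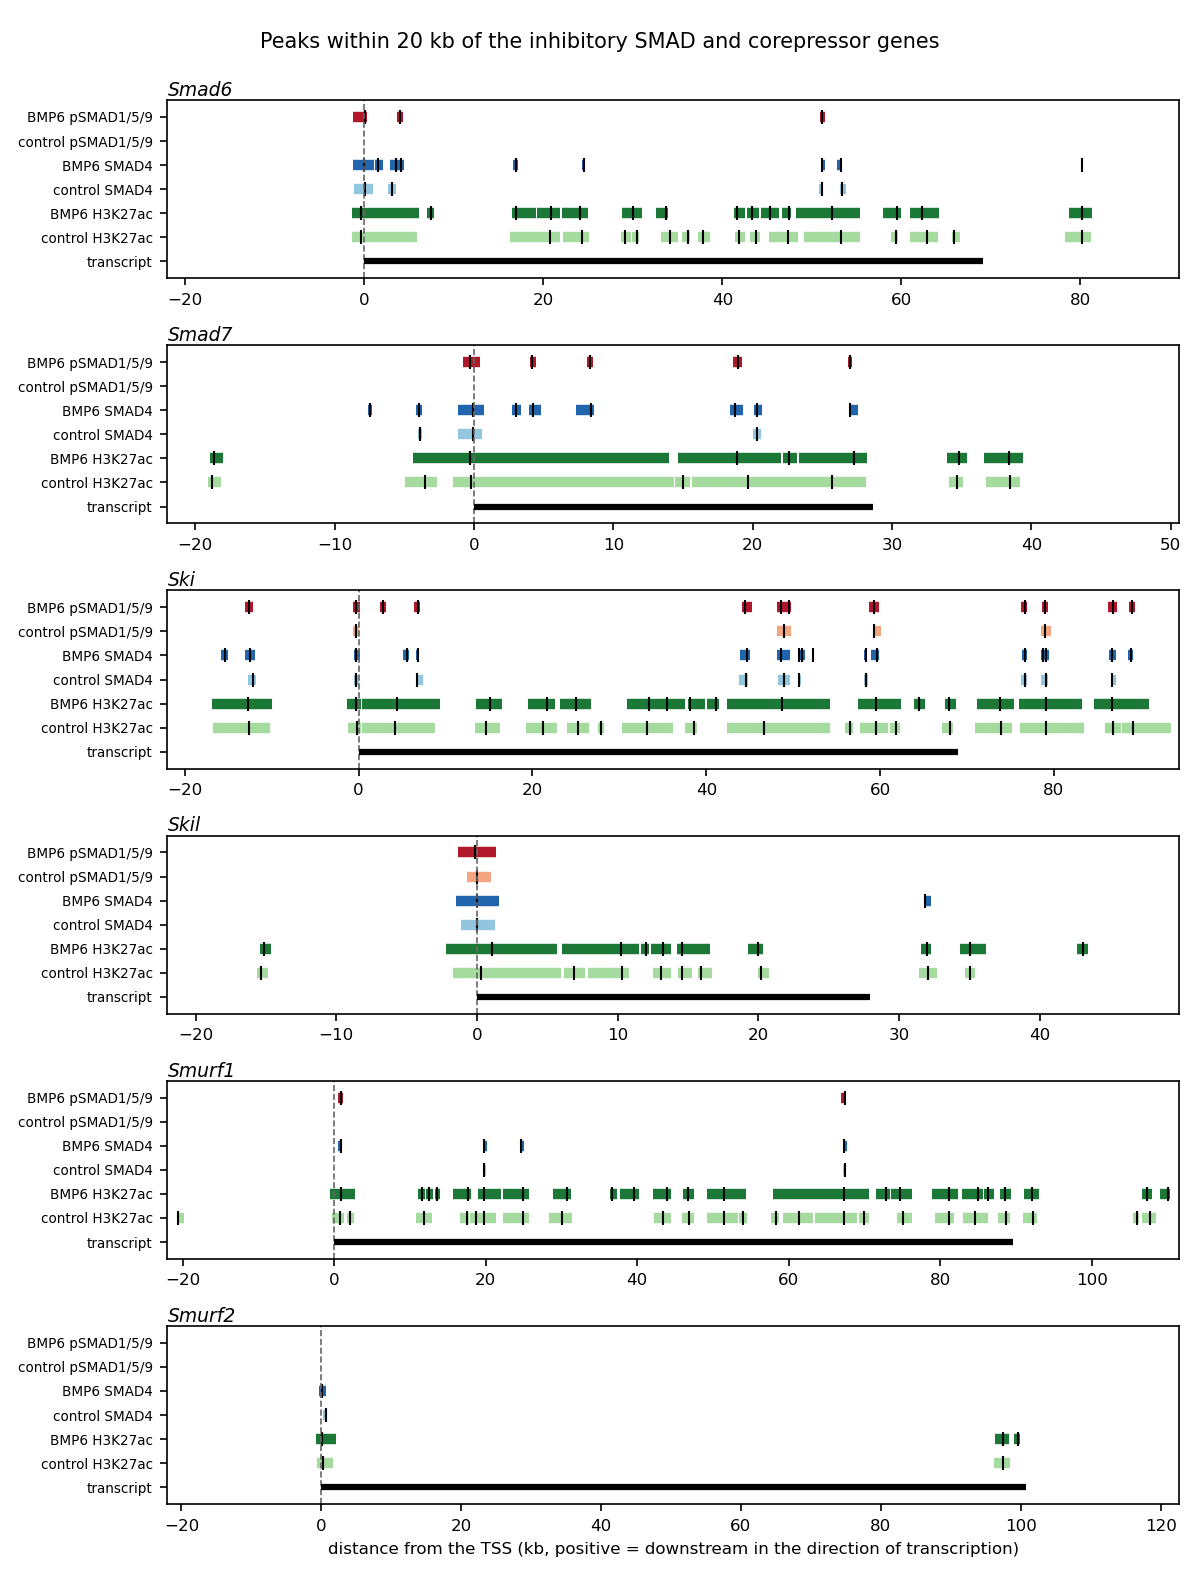
Consensus peaks at the 6 genes by distance from the TSS in kb (x axis), with 1 row for each of the 6 lists and the canonical transcript as a black bar. Coloured bars span the peaks and black ticks mark the summits. Ski carries 12 pSMAD1/5/9 peaks after BMP6 spread over its region, Skil carries 1 at the TSS, and Smurf2 carries none.

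Skil encodes the corepressor SnoN. On GRCm39 its canonical transcript (ENSMUST00000118470.9 of gene ENSMUSG00000027660.18) runs on the plus strand, and occupies positions 31148816 to 31176740 of chromosome 3. The pSMAD1/5/9 peak after BMP6 spanned 2673 bp, from 31147468 to 31150140, and its summit was 170 bp before the TSS. In the list it ranked 1, with rank 1 by the first replicate column and rank 8 by the second. Its signal was 15.6 times the list median in the first replicate and 6.85 times in the second. In control cells a pSMAD1/5/9 peak of 1720 bp covered the same TSS, with its summit 29 bp upstream, and it ranked 2 among 949 peaks (1 and 5 by the replicate columns). The control peak was 4.22 times its list median, against 11.6 times after BMP6. Signals of different lists have no stated common scale. The medians are also those of unlike lists, with 949 control peaks (median signal 31098) and 7339 after BMP6 (19493). These multiples are thus side by side and were not tested.

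SMAD4 was listed at the Skil promoter in both conditions. After BMP6 the peak ranked 1 by both replicate columns, with 17.2 and 24.5 times the list median, and its summit was 17 bp before the TSS. In control cells it ranked 2 of 8577 by both replicate columns, with 16.3 times the list median from both replicates together, and the summit lay 22 bp upstream. The SMAD4 summits of both conditions were thus 5 bp apart, while the pSMAD1/5/9 and SMAD4 summits after BMP6 were 153 bp apart. A second, weak SMAD4 peak was listed after BMP6, 31869 bp downstream of the TSS at rank 9881, and its summit was nearer to the TSS of Cldn11 than to that of Skil. The promoter had broad H3K27ac, with 7840 bp after BMP6 at rank 664 and 7700 bp in control cells at rank 303. By H3K27ac count, Skil had 10 peaks in each condition.

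**Figure D2:**
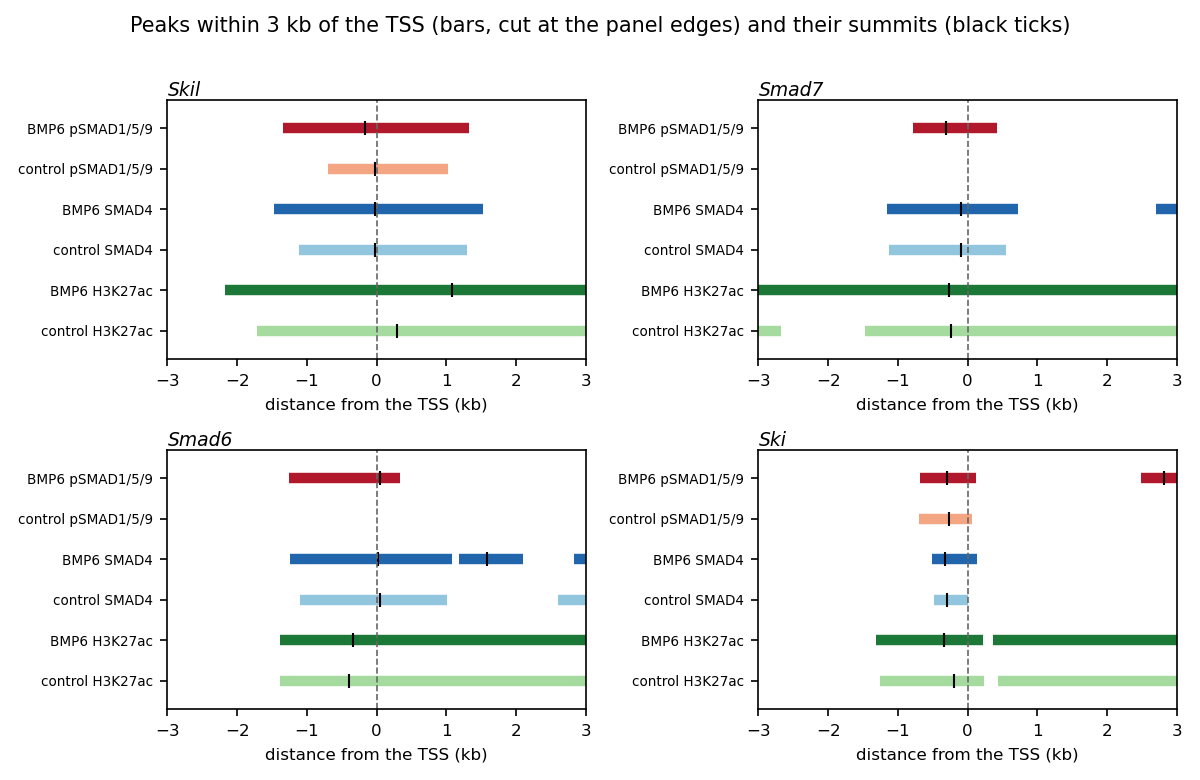
Peaks within 3 kb of the TSS of Skil, Smad7, Smad6 and Ski, with distance from the TSS in kb on the x axis and the 6 lists as rows. Bars span the peaks, and black ticks are summits. Skil and Ski have a pSMAD1/5/9 peak over the TSS in both conditions, and Smad7 and Smad6 have one only in the BMP6 row, although SMAD4 covers all 4 promoters in both conditions.

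Ski encodes the founding member of the same corepressor family. Its canonical transcript (ENSMUST00000030917.7 of gene ENSMUSG00000029050.17) spans 155238532 to 155307543 of chromosome 4, minus strand. By the regions used here, 6 of 21757 genes, Ski included, had 12 or more pSMAD1/5/9 peaks after BMP6, and 6 had 17 or more SMAD4 peaks. In control cells Ski had 4 pSMAD1/5/9 and 10 SMAD4 peaks. The 12 peaks were spread from 12.7 kb upstream of the TSS to 89.0 kb downstream of it, and 10 of them passed the stricter IDR of 0.01. Of all 7339 pSMAD1/5/9 peaks after BMP6, 3674 passed it. The strongest of the 12 lay at the promoter, from 155307421 to 155308230, at rank 516, with its summit at 290 bp before the TSS (ranks 555 and 573 by the replicate columns). This promoter peak was also listed for pSMAD1/5/9 in control cells (rank 158) and for SMAD4 in both conditions (ranks 786 and 1678), with all 4 summits between 267 bp and 321 bp upstream of the TSS.

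A group of intronic peaks lay 44 to 60 kb downstream of the Ski TSS. The strongest SMAD4 peak of Ski was here, with its summit at 48614 bp and rank 222 after BMP6 (190 and 315 by the replicate columns), and rank 152 in control cells with its summit at 48979 bp. The strongest control pSMAD1/5/9 peak of Ski covered the same stretch, from 155257801 to 155259400, at rank 110. After BMP6, pSMAD1/5/9 formed a pair of peaks within that stretch, at rank 751 (summit at 48629 bp) and rank 3114 (49511 bp). The first of these differed between the replicates, with ranks of 1736 and 260. Further intronic pSMAD1/5/9 peaks after BMP6 lay at 44492 bp (rank 1230) and 59244 bp (rank 724), and the latter was also listed in control cells at rank 503. Nearer to the TSS were weaker ones, at 2812 bp (rank 6663) and 6861 bp (rank 3075). The peak at 2812 bp was the single one of the 23 pSMAD1/5/9 peaks at the 6 genes that overlapped no SMAD4 peak.

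Outside the Ski transcript, 1 pSMAD1/5/9 peak after BMP6 lay 12654 bp upstream (rank 1699) and 4 lay downstream of the 3′ end. The downstream summits were 76668 bp (rank 6868), 78942 bp (rank 786), 86831 bp (rank 608) and 89016 bp (rank 3105) from the TSS. All 4 were nearer to the TSS of Morn1 than to that of Ski, at distances of 47621 bp to 59969 bp, so that the count of Ski peaks depends on how distal peaks are assigned. With 5 kb on either side of the transcript, Ski had 7 pSMAD1/5/9 and 10 SMAD4 peaks after BMP6, and with peaks nearest to its own TSS 8 and 11. Of the control pSMAD1/5/9 peaks, the fourth lay at 79006 bp in this group, at rank 206. In control cells H3K27ac covered 61.1% of the Ski region, with 18 peaks, and after BMP6 17 peaks covered 71989 bp of it. Its strongest peak was the intronic stretch around 48672 bp after BMP6, 11760 bp wide at rank 372 (2172 and 300 by the replicate columns). In control cells the strongest lay around 79039 bp at rank 215, where the replicates ranked 50 and 5787.

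**Figure D3:**
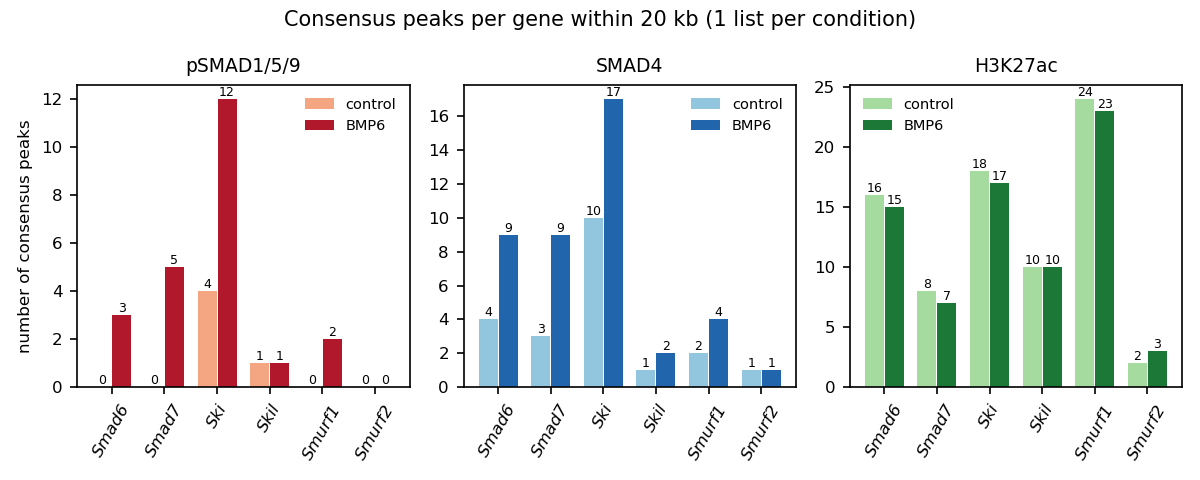
Number of consensus peaks per gene within 20 kb of the transcript (y axis, from 0), for control cells (light bars) and after BMP6 (dark bars), with 1 panel per antibody. Each bar is 1 list, so there are no error bars. Ski has the highest counts for pSMAD1/5/9 (12 and 4) and SMAD4 (17 and 10), and Smurf1 for H3K27ac (23 and 24).

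Smad6 encodes the inhibitory SMAD that acts chiefly on BMP signaling. Its canonical transcript (ENSMUST00000041029.7 of gene ENSMUSG00000036867.9) occupies positions 63860341 to 63929411 of chromosome 9, minus strand. After BMP6, 3 pSMAD1/5/9 peaks were listed, and none in control cells. The promoter peak, from 63929071 to 63930672, had its summit 44 bp downstream of the TSS and ranked 90. The replicates disagreed on its strength, with ranks of 37 and 356 and signals of 5.88 and 3.03 times the list median. The others lay in introns, at 3947 bp (rank 6262) and 51128 bp (rank 5284), and neither passed an IDR of 0.01.

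SMAD4 at the Smad6 promoter was stronger in rank than pSMAD1/5/9 and closer between replicates. After BMP6 the peak ranked 10 of 12860, with ranks of 10 and 20 and signals of 11.7 and 12.5 times the list median. In control cells it ranked 30 of 8577, with ranks of 32 and 28 and signals of 7.80 and 8.06 times the list median. The summits lay 16 bp and 45 bp downstream of the TSS. Smad6 had 9 SMAD4 peaks after BMP6 and 4 in control cells, but 2 and 3 of them passed an IDR of 0.01. In the whole lists, 6322 of 12860 and 3575 of 8577 SMAD4 peaks passed it. A SMAD4 peak after BMP6 in an intron 53310 bp from the TSS at rank 8067, which overlapped a control SMAD4 peak, held the second spaced GGCGNC site among the SMAD4 windows of the 6 genes. H3K27ac covered the promoter with a peak of 7490 bp after BMP6 and of 7300 bp in control cells, at rank 4967 (2295 and 8700 by the replicate columns) and rank 12850 (11930 and 13844).

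Smad7 encodes the inhibitory SMAD that acts on both BMP and TGF-β signaling. Its canonical transcript (ENSMUST00000026999.11 of gene ENSMUSG00000025880.14) occupies positions 75500374 to 75529006 of chromosome 18, plus strand. There were 5 pSMAD1/5/9 peaks after BMP6 and none in control cells. The promoter peak spanned 1197 bp, ranked 15, and had its summit at 307 bp before the TSS (ranks 17 and 20 by the replicate columns, with 6.99 and 5.97 times the list median). The others lay within the transcript, in introns at 4183 bp (rank 2610), 8362 bp (rank 1249) and 18947 bp (rank 2735), and in an exon at 27013 bp (rank 5330). Each of the 5 overlapped a SMAD4 peak after BMP6, and of these SMAD4 peaks only that at the promoter overlapped one in control cells.

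For SMAD4, Smad7 had 9 peaks after BMP6 and 3 in control cells, of which 8 and 1 passed an IDR of 0.01. In the whole lists, 6322 of 12860 and 3575 of 8577 SMAD4 peaks passed it, and the difference at Smad7 was not tested. The promoter peak ranked 7 after BMP6 (14 and 7 by the replicate columns) and 15 in control cells (23 and 15). Its signal was 11.1 and 15.5 times the list median in the replicates after BMP6, and 8.29 and 9.68 times in control cells. The SMAD4 summits, 95 bp and 88 bp upstream of the TSS, lay 212 bp (after BMP6) from the pSMAD1/5/9 summit. The palindrome GTCTAGAC began 127 bp upstream of the TSS, 28 bp from the SMAD4 summit after BMP6 and 184 bp from the pSMAD1/5/9 summit. Thus both inhibitory SMAD promoters held the palindrome inside their SMAD4 window of 200 bp after BMP6. They were 2 of the 42 SMAD4 windows at the 6 genes (4.76%, Wilson 95% interval 1.32% to 15.8%). Of all SMAD4 windows after BMP6, 1.26% held the palindrome (162 of 12860). H3K27ac formed a domain of 18410 bp over the Smad7 promoter and gene body after BMP6 (rank 753) and of 15800 bp in control cells (rank 1435). The replicates differed in this rank, with 2102 and 659 after BMP6 and 670 and 5230 in control cells.

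Smurf1 encodes a ubiquitin ligase that targets SMAD1 and SMAD5. Its canonical transcript (ENSMUST00000420208.1 of gene ENSMUSG00000038780.16) occupies positions 144813300 to 144902866 of chromosome 5, minus strand. A pair of pSMAD1/5/9 peaks was listed after BMP6 and none in control cells. Their summits lay 899 bp (rank 3210) and 67446 bp (rank 5139) downstream of the TSS, both in introns, and the first passed an IDR of 0.01. By the replicate columns the first ranked 2857 and 3683, near the middle of the list. SMAD4 peaks lay at both sites after BMP6, with summits 6 bp and 111 bp away from those of pSMAD1/5/9. Smurf1 had 4 SMAD4 peaks after BMP6, the strongest at 24633 bp (rank 3609), and 2 in control cells, the strongest at 19795 bp (rank 5278). Neither control peak passed an IDR of 0.01. Smurf1 had the most H3K27ac peaks of the 6 genes, 23 after BMP6 and 24 in control cells.

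Smurf2 encodes the related ligase that also serves SMAD7 as a partner. Its canonical transcript (ENSMUST00000092517.10 of gene ENSMUSG00000018363.19) spans 106710891 to 106811574 of chromosome 11, minus strand, and is the longest of the 6. It had no pSMAD1/5/9 peak in either condition and 1 SMAD4 peak in each. The SMAD4 peak ranked 2544 after BMP6 (3202 and 1891 by the replicate columns), with its summit 137 bp downstream of the TSS. In control cells it ranked 5196 (4173 and 6792), with its summit 623 bp downstream, and did not pass an IDR of 0.01. H3K27ac covered the TSS in both conditions, with 3 peaks in the region after BMP6 and 2 in control cells.

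**Figure D4:**
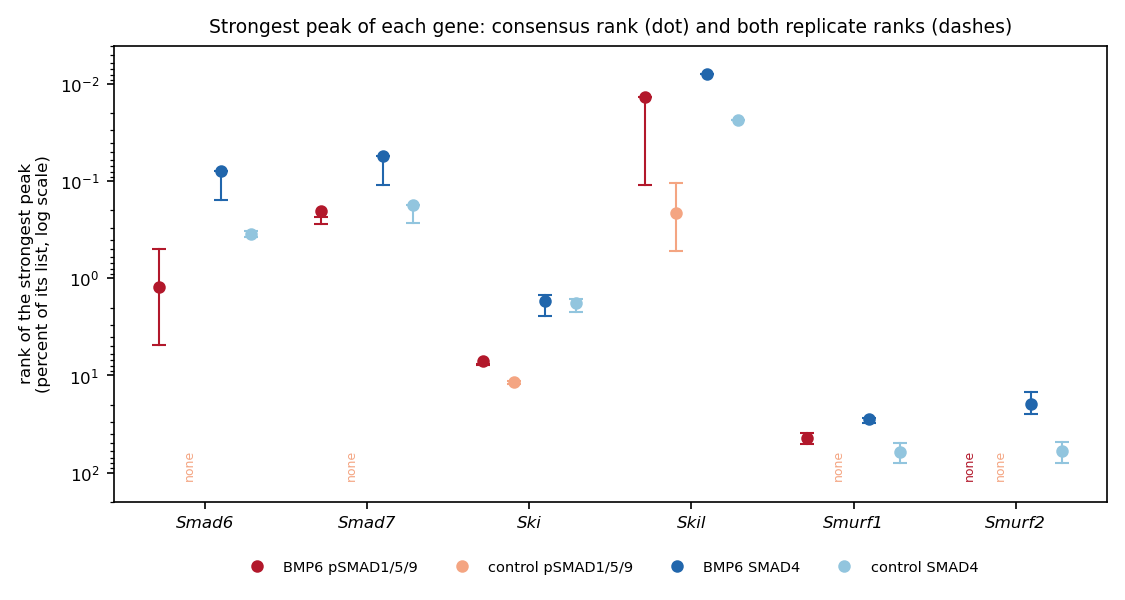
Rank of the strongest peak of each gene as a percent of its list (y axis, log scale, the strongest at the top) for pSMAD1/5/9 and SMAD4. Dots are the consensus rank, dashes joined by a line are the ranks by each of the 2 replicate columns, and "none" marks a list without a peak. Skil lies highest in all 4 lists, Smad7 and Smad6 follow in the 3 lists where they have a peak, and the dots of Smurf1 and Smurf2 lie between 19.8% and 61.5%.

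When overlapping pSMAD1/5/9 and SMAD4 peaks of both conditions were merged, the 6 genes had 40 sites, 16 at Ski, 9 at Smad7, 8 at Smad6, 4 at Smurf1, 2 at Skil and 1 at Smurf2. pSMAD1/5/9 was listed at 17 of the 40 sites after BMP6 and not in control cells, and at 10 of these 17 SMAD4 was listed in control cells. In the whole list of 7339 pSMAD1/5/9 peaks after BMP6, 11.4% overlapped a control pSMAD1/5/9 peak and 57.2% a control SMAD4 peak. These shares count peaks and not merged sites, and SMAD4 in control cells was thus common over the whole list. SMAD4 was listed at 18 sites after BMP6 and not in control cells, and at 0 sites in control cells alone. The 18 sites included 7 with pSMAD1/5/9 after BMP6, of which 4 lay in the Smad7 transcript. Of the 40 sites, 39 overlapped H3K27ac in both conditions, and the exception was the SMAD4 peak 7471 bp upstream of Smad7. In the whole lists, 95.7% of BMP6 SMAD4 peaks and 98.2% of BMP6 pSMAD1/5/9 peaks overlapped BMP6 H3K27ac, so this overlap is common to nearly all peaks.

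Most pSMAD1/5/9 peaks at these genes coincided with a SMAD4 peak, but many SMAD4 peaks had no pSMAD1/5/9 peak. After BMP6, 22 of 23 pSMAD1/5/9 peaks overlapped a SMAD4 peak (95.7%, Wilson 95% interval 79.0% to 99.2%), against 73.2% of all pSMAD1/5/9 peaks. The distance between the summits of such pairs had a median of 104 bp and ranged from 6 bp to 897 bp. From the side of SMAD4, 23 of 42 peaks after BMP6 overlapped a pSMAD1/5/9 peak (54.8%, interval 39.9% to 68.8%), against 42.7% of all SMAD4 peaks. Of the 21 control SMAD4 peaks, 21 overlapped a SMAD4 peak after BMP6 (interval 84.5% to 100%), against 69.7% of all control SMAD4 peaks. Conversely, 23 of the 42 SMAD4 peaks after BMP6 overlapped one in control cells (54.8%, interval 39.9% to 68.8%), against 45.5% in the list. In these 23 pairs the summits were a median of 29 bp apart. The intervals cover counting over peaks only, and peaks of 1 gene are not replicates.

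Most motif shares at the 6 genes lay near those of the whole lists. GTCTG was found in 12 of 23 pSMAD1/5/9 windows after BMP6 (52.2%, interval 33.0% to 70.8%), against 48.6% of all windows, and GGAGCC in 7 of 23 (30.4%, interval 15.6% to 50.9%), against 25.2%. The E-box CAGCTG, which myogenic factors bind, was found in 8 of 23 (34.8%, interval 18.8% to 55.1%), against 31.1%. AP-1 was found in 2 of 23 (8.70%, interval 2.42% to 26.8%), against 15.5%. GGCGCC was found in 1 of 23, the Skil promoter, against 7.75%. The palindrome was found in 1 of 23, the Smad6 promoter (4.35%, interval 0.772% to 21.0%), against 0.518%. The GACGNC form of the spaced site was found in none of the 23 pSMAD1/5/9 and 42 SMAD4 windows after BMP6, and in 0.109% and 0.0700% of all windows of these lists. A share of 0 of 23 allows up to 14.3% by the Wilson interval. The GC content of the windows was 59% in the median at the 6 genes and 56% over the pSMAD1/5/9 list.

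**Figure D5:**
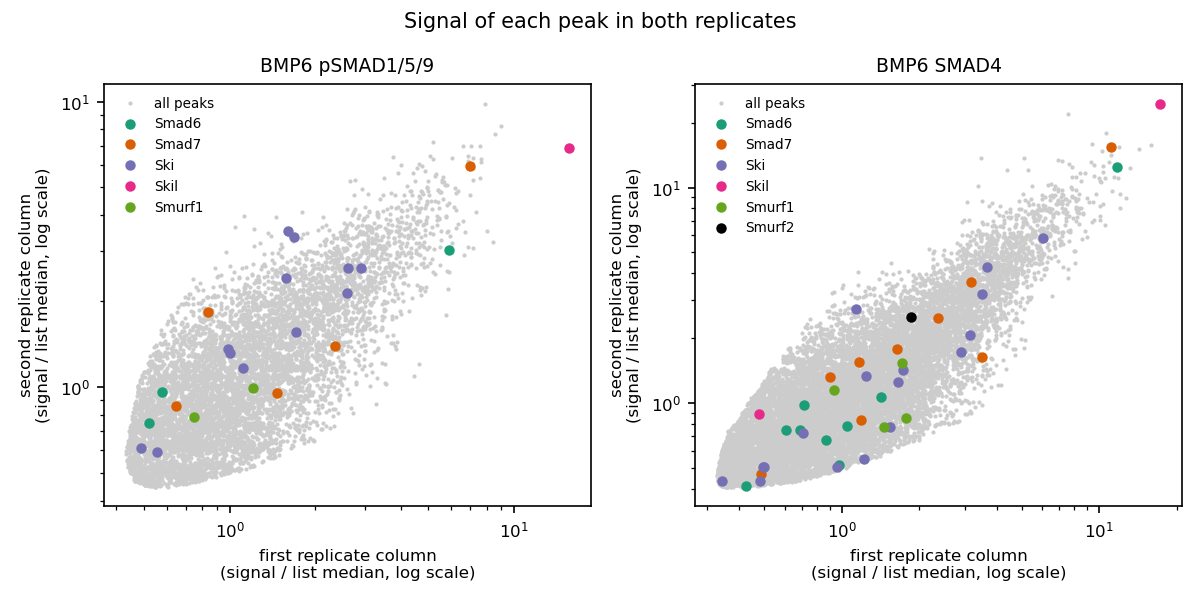
Signal of every peak after BMP6 in the first (x axis) and second (y axis) replicate column, each divided by its list median, on log scales. Grey dots are all peaks of the list and coloured dots are peaks at the 6 genes. The Skil promoter lies at the upper right for both pSMAD1/5/9 and SMAD4, with Smad7 and Smad6 below it, and the Ski peaks spread from above the list median to the lower end of the range.

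A wider list of 34 other regulators of SMADs was examined by the same rule. Of these, 20 had a pSMAD1/5/9 peak after BMP6, against 29.1% of all genes. In control cells 5 had one (Usp9x, Sin3a, Ctbp1, Pmepa1 and Ldlrad4), against 5.97%. At an IDR of 0.01 none of these 5 kept a control peak, but only 141 of all 949 control pSMAD1/5/9 peaks passed it. SMAD4 peaks were listed at 23 after BMP6 and 19 in control cells, against 39.3% and 30.8% of all genes. All 3 membrane inhibitors (Bambi, Pmepa1 and Ldlrad4) had pSMAD1/5/9 after BMP6, as did 6 of 9 E3 ligases, 3 of 5 deubiquitinases, 3 of 4 phosphatases and 5 of 9 repressors and partners. The SKI and DACH family members Skor1, Skor2, Dach1 and Dach2 had none. Pmepa1, a membrane protein that sequesters SMADs, had 9 pSMAD1/5/9 peaks (best rank 19) and 12 SMAD4 peaks (best rank 6) after BMP6. Its strongest peak thus ranked between Smad7 and Smad6 for pSMAD1/5/9, and between Skil and Smad7 for SMAD4. The best pSMAD1/5/9 ranks among the deubiquitinases, ligases and phosphatases were 182 at the deubiquitinase Usp9x, 183 at the ligase Wwp2 and 1331 at the phosphatase Ppm1a. A SMAD4 peak after BMP6 and none in control cells was found at 4 of the 34 (Rnf111, Usp4, Ppm1a and Hdac3), near the share of 12.8% over all genes.

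Side by side with other parts of the pathway, the median best rank of pSMAD1/5/9 after BMP6 was 90 over the 5 bound genes of the 6, and 2992 over all 6322 genes with a peak. It was 484 over the 4 Id genes, which are classical BMP targets and all had a peak (best rank 152). Of the 6 genes for the receptor SMADs and SMAD4, 4 had a peak with a median best rank of 3973, and among 5 BMP antagonists 2 had a peak with a median of 3092. These ranks describe single lists, and differences between the groups of genes were not tested.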

How the data were processed

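The 12 samples with an antibody entered 6 consensus lists, while the negative controls (2 libraries) were not used here. According to the methods, the authors subsampled reads to one depth for each antibody, aligned them to GRCm39 with Bowtie2 2.5.4, called peaks per replicate with JAMM and combined 2 replicates with IDR at 0.05. The deposited signal of a peak is a score of the peak caller without fixed range, and equals the sum of both replicate columns. The deposited IDR is given as −log10. Replicate columns carry no replicate number.

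Genes were canonical GENCODE transcripts. Peaks were assigned by an overlap of at least 1 bp, ranked by signal within their list, and described without tests. The label TSS was given within 2 kb. Motifs were counted in 200 bp around summits, with pysam 0.24.0, pandas 2.3.3, numpy 2.4.6 and Python 3.11.15. Wilson intervals came from scipy 1.17.1 and figures from matplotlib 3.10.9. Overlap and motif procedures were tested on simulated data. The consensus summit was the mean of the replicate summits (within 1 bp) in 38.5% to 57.1% of peaks per list. Genes named were the 6 genes, the wider-list gene with the best pSMAD1/5/9 rank in each group (that of the repressors and partners is not reported here), and genes of counts up to 5. Genes, lists and motifs were chosen with earlier results of these data known.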

Additional observations from a re-analysis of the deposited data

How the results depend on the processing

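No paired analysis was possible because each list is 1 consensus of both replicates and its columns carry no replicate number. Restricting peaks to the promoter (from 1.5 kb before to 0.5 kb after the TSS) left 4 pSMAD1/5/9 peaks after BMP6 and 2 in control cells, 6 and 5 for SMAD4, and 7 and 7 for H3K27ac, since most peaks are distal. At an IDR of at most 0.01, 3 control pSMAD1/5/9 peaks remained, 23 and 11 SMAD4 peaks after BMP6 and in control cells, and 0 genes of the wider list with control pSMAD1/5/9. In the whole lists, 141 of 949 control pSMAD1/5/9 peaks remained, and 6322 of 12860 and 3575 of 8577 SMAD4 peaks. The strongest control SMAD4 peaks of Smurf1 and Smurf2 were lost at this threshold, and 4 of the 6 genes kept one. With 50 kb on either side, all 6 genes, Smurf2 included, had pSMAD1/5/9 after BMP6. The share of all protein-coding genes was not computed for 50 kb or for the stricter IDR, so these counts of genes have no background.

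Ranks by 1 replicate column were taken as the best rank of any peak of the gene, so the peak can differ between columns. For pSMAD1/5/9 after BMP6 they were 1 and 8 at Skil, 17 and 20 at Smad7, 37 and 356 at Smad6, 209 and 555 at Ski, and 2857 and 3683 at Smurf1. The rank of 209 belonged to the intronic Ski peak at 59244 bp, whereas the Ski promoter peak ranked 555 and 573. For control pSMAD1/5/9 they were 1 and 5 at Skil and 107 and 117 at Ski. For SMAD4 after BMP6 the ranks were 1 and 1 at Skil, 7 and 14 at Smad7, 10 and 20 at Smad6, 190 and 315 at Ski, 1891 and 3202 at Smurf2, and 3377 and 3931 at Smurf1. For control SMAD4 they were 2 and 2 at Skil, 15 and 23 at Smad7, 28 and 32 at Smad6, 139 and 191 at Ski, 4173 and 6792 at Smurf2, and 4236 and 4802 at Smurf1. The Smurf1 SMAD4 peak with the best consensus rank had column ranks of 3548 and 3931 after BMP6, and of 4236 and 6863 in control cells. By either column Skil ranked ahead of the other genes in all 4 lists.

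Requiring an overlap of 50% of both peaks gave 78.3% for BMP6 pSMAD1/5/9 peaks with BMP6 SMAD4, and for H3K27ac 62.7% of BMP6 and 60.3% of control peaks with the other condition. Counting motifs over whole peaks gave, for pSMAD1/5/9 after BMP6, 34.8% with GGCGCC, 73.9% with GGAGCC, 91.3% with GTCTG and 65.2% with CAGCTG, and for SMAD4 26.2%, 64.3%, 83.3% and 54.8%, since whole peaks are longer than the windows. In windows of 100 bp, GGCGCC and the GGCGNC spaced site were found in 0% of pSMAD1/5/9 peaks, the spaced site in 0% of SMAD4 peaks and AP-1 in 2.38% of SMAD4 peaks, so that the Skil site lies more than 50 bp from the summits. The other 129 of 166 values kept within 1.5 times, the interval or the spread between replicates. This tally does not measure robustness. The spread allowed for a rank came from the same replicate columns that were compared with it. Ranks at the stricter IDR were those of the same peaks, and strongest peaks lost there were not counted. Counts of peaks for each gene were not among the 166, and 58 of them went beyond these limits while 194 did not.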
